A study of Rattus norvegicus with 112 samples.

Results

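The enzymes that make nitric oxide and prostaglandins, together with a phospholipase that frees their lipid substrate, were examined in cultured rat cortical neurons exposed to NMDA, nicotine or the nicotinic antagonist 4R. The members were chosen by annotation: every probe set assigned to Nos1, Nos2, Nos3, Ptgs1, Ptgs2 or Pla2g6, which gave 13 of the 1263 probe sets for genes on the array and 6 of its 720 named genes. Nos2 had 7 probe sets, Nos1 had 2, and each of the other 4 genes had 1. The rule itself uses annotation only.

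Nitric oxide synthases turn arginine into nitric oxide, a diffusible messenger. Nos1 encodes the neuronal enzyme, which is held close to the NMDA receptor by the scaffold PSD-95 and is switched on by calcium and calmodulin. Nos2 encodes the inducible enzyme, best known from activated microglia, astrocytes and macrophages, and Nos3 encodes the endothelial enzyme. Phospholipases A2 release arachidonic acid from membranes, and Pla2g6 encodes the calcium-independent form iPLA2. Ptgs1 and Ptgs2 encode the cyclooxygenases COX-1 and COX-2, which convert arachidonic acid to the prostaglandin precursor. Ptgs2 is a textbook activity-regulated gene of cortical neurons.

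The series held 112 arrays in 10 runs, all of RNA labelled as rat cerebral cortex, and the treated samples were described as primary cortical neurons. In the continuous run 1 mM NMDA, an agonist of NMDA-type glutamate receptors, stayed on for 10, 30, 60, 180 or 360 min, with 3 arrays per time and 3 control arrays. In the pulse run 1 mM NMDA was applied for 10, 30 or 60 min and washed out, and cells were harvested 24 h later, with 4 arrays per group and 4 control arrays. A second pulse set had 1 array per group, and 4 more arrays were repeats of pulse samples. For replicate 1 of the 30 min pulse 1 label field names 60 min. In the crossed run, cells received 10 uM nicotine for 18 h followed by 1 mM NMDA for 60 min, NMDA alone, nicotine alone, or neither, with 3 arrays each and no wash. In the washed-out experiment, the 4 groups were again both drugs, NMDA alone, nicotine alone and neither, here with a 30 min exposure to NMDA (1 mM) added after 18 h in nicotine (10 uM), and the treated cells were harvested 24 h after wash-out. Each of these groups had 5 samples, all hybridized in a first run and again in a repeat run that the labels attribute to an oven failure. The remaining runs compared 10 uM nicotine for 15 min, harvested 45 min after a change of medium, with control, 2 uM 4R for 18 h with control, and 2 uM 4R for 18 h followed by a 24 h wash with control, with 3 arrays per group. The labels call 4R a non competitive nicotinic antagonist. They give culture dates for some runs and numbers only for others, so p-values measure the spread between these samples, which may in part be technical.

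The values were intensities, scaled so that the trimmed mean of each array lay between 2503 and 2513. Neuronal markers were bright over the replicated runs, with a mean signal of 11270 for Map2 and 5287 for Snap25, and the astrocyte marker S100b averaged 3365. In the continuous control samples the 6 astrocyte markers on the array summed to 30931 to 39361, and the 10 neuronal markers to 92452 to 118380. Itgam was the array's sole probe set among 12 microglia and macrophage markers listed, and it averaged 282. By correlation with the other arrays of their run, 9 of the 84 arrays in the 7 main replicated runs stood apart. Control replicates 3 and 4 of the washed-out repeat run stood furthest, with median correlations of -0.02 and 0.51. They enter the first value given for that run, and the value without them follows wherever a result rests on them.

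Promoters are shown for Ptgs2 and Pla2g6, the members with a sequence entry whose probe sets passed the signal filter described below in all 8 replicated runs. Each line gives the 250 bases before the annotated start, from RefSeq on build GRCr8, read 5′ to 3′ on the strand of the gene, with CACGTG, an E-box, in capitals. For Pla2g6 the first of 2 entries is shown. Ptgs2 lies on the plus strand at chr13:64713813-64714062, and Pla2g6 on the minus strand at chr7:112771610-112771859.
Ptgs2: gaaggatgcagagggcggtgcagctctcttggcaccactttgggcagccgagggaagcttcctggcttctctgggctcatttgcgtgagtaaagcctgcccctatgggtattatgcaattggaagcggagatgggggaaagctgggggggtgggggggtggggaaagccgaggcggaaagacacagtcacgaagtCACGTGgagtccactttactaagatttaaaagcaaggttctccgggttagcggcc
Pla2g6: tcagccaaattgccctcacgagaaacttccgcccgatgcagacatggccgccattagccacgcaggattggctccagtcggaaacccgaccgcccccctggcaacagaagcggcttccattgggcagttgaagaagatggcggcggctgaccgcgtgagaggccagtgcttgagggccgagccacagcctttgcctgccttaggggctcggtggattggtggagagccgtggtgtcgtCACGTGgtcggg
The E-box of Ptgs2 ends 50 bases before the start and that of Pla2g6 ends 7 bases before it. On either strand, CACGTG occurs in 5.59% of 33469 rat promoters of this length. The full cyclic AMP response element TGACGTCA, found in 1.59% of them, occurs in neither of these windows, and its shorter form CGTCA, found in 18.2%, occurs in that of Pla2g6. Nos1 holds both TGACGTCA and the CGTCA within it.

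A probe set was tested in a run where its mean exceeded the 30th percentile of the 1263 probe sets, which left 884 in each run. Pla2g6, Ptgs2 and the Nos2 probe sets S71597_s_at, U16359cds_at and U48829_s_at passed in all 8 replicated runs, the first run of the washed-out samples included. Among the other Nos2 probe sets, D83661_s_at passed in 5 runs, AF006619_s_at and U03699complete_seq_at in 4 each, and D44591_s_at in 0. Ptgs1 passed in 3 runs. For Nos1, U67309_at passed in 1 run and X59949cds_s_at in 0, and Nos3 passed in 0. The files give no detection calls, so a low signal here does not show that a transcript was absent.

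**Figure D1:**
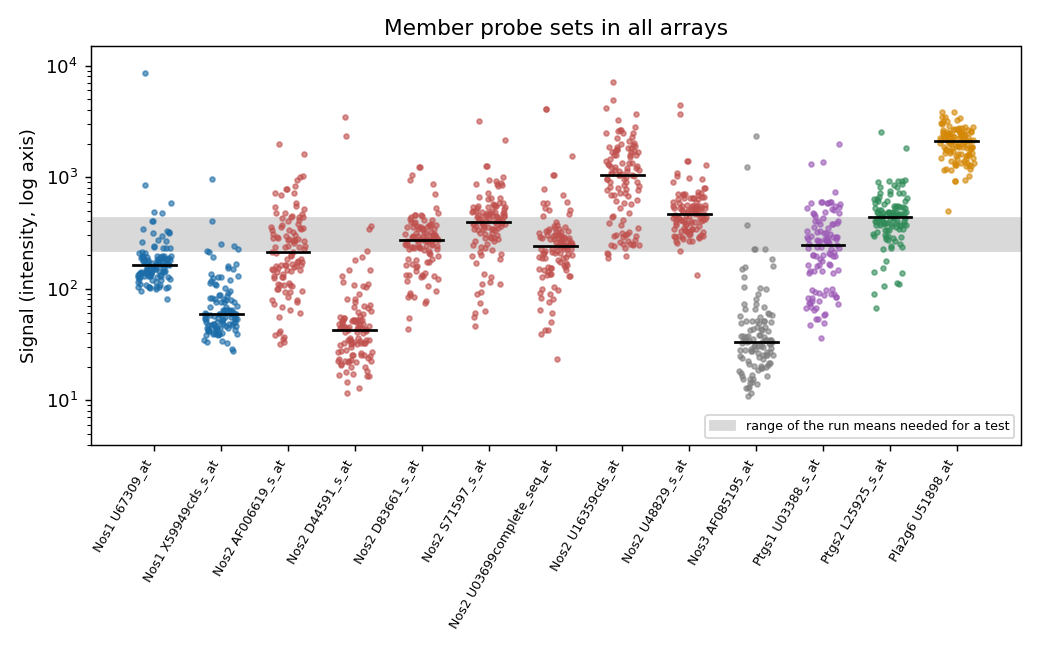
Signal of the 13 member probe sets in each of the 112 arrays (points, intensity on a log axis), with the median of each probe set as a black bar and the range of the run means needed for a test as a grey band. Nos3, Nos1 X59949cds_s_at and Nos2 D44591_s_at have their medians below the band and Pla2g6 has its median above it; levels of different probe sets are not comparable as amounts of transcript.

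Over the 21 comparisons planned with the repeat run as the main measurement of the washed-out samples, 162 tests of members were made with limma. None passed an adjusted p of 0.05 over all 884 probe sets, and 6 had an unadjusted p below 0.05, where 5% of the tests would be 8.1. In the continuous run 8 members' probe sets were tested, beside calls for 0%, 0%, 0.679%, 0.452% and 0% of all probe sets at 10, 30, 60, 180 and 360 min. At 180 min all 8 had changes below 0, with a median log2 change of -0.25 beside -0.07 over all probe sets. At 360 min 6 were above 0 and 2 below (median 0.14), and without the arrays that stood apart all 8 were below 0 (median -0.39). Several of the 8 are probe sets of Nos2, so they are not independent. The share of all probe sets below 0 was not counted. In the pulse run 9 were tested, beside calls for 2.26%, 1.36% and 1.58% after the 10, 30 and 60 min pulses. In the crossed run 8 were tested, beside 0.905% for NMDA against control, 0% for nicotine against control, 1.02% for nicotine plus NMDA against nicotine, 0% for nicotine plus NMDA against NMDA and 0% for the interaction. The brief nicotine, 4R and washed 4R runs tested 6, 6 and 8, beside 0% in each.

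The washed-out samples gave 7 tested probe sets in the repeat run, beside calls for 0.226% of probe sets for NMDA against control and 0% each for nicotine against control, nicotine plus NMDA against nicotine, nicotine plus NMDA against NMDA, and the interaction. Without control replicates 3 and 4, NMDA against control had calls at 1.92% of probe sets and at 0 members. With all arrays, all 7 probe sets had changes below 0 for NMDA against control (median -0.81) and 6 of 7 for nicotine against control (median -1.15), in a run where several members were high in control replicates 3 and 4. Without those 2 arrays 4 of 7 were below 0 for NMDA (median -0.08) and 5 of 7 for nicotine (median -0.22), with 0 calls. Both of these medians are the values of Nos1 U67309_at, which passed the filter only through those 2 arrays. Several of the 7 are probe sets of Nos2, so they are not independent. The share of all probe sets below 0 was not counted. The first run tested 5 members' probe sets, beside 13.9% for NMDA against control, 0.339% for nicotine against control, 2.04% for nicotine plus NMDA against nicotine, and 0% for both nicotine plus NMDA against NMDA and the interaction. One member passed there, Nos2 S71597_s_at for NMDA against control, in a comparison where close to 1 in 7 probe sets passed.

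**Figure D2:**
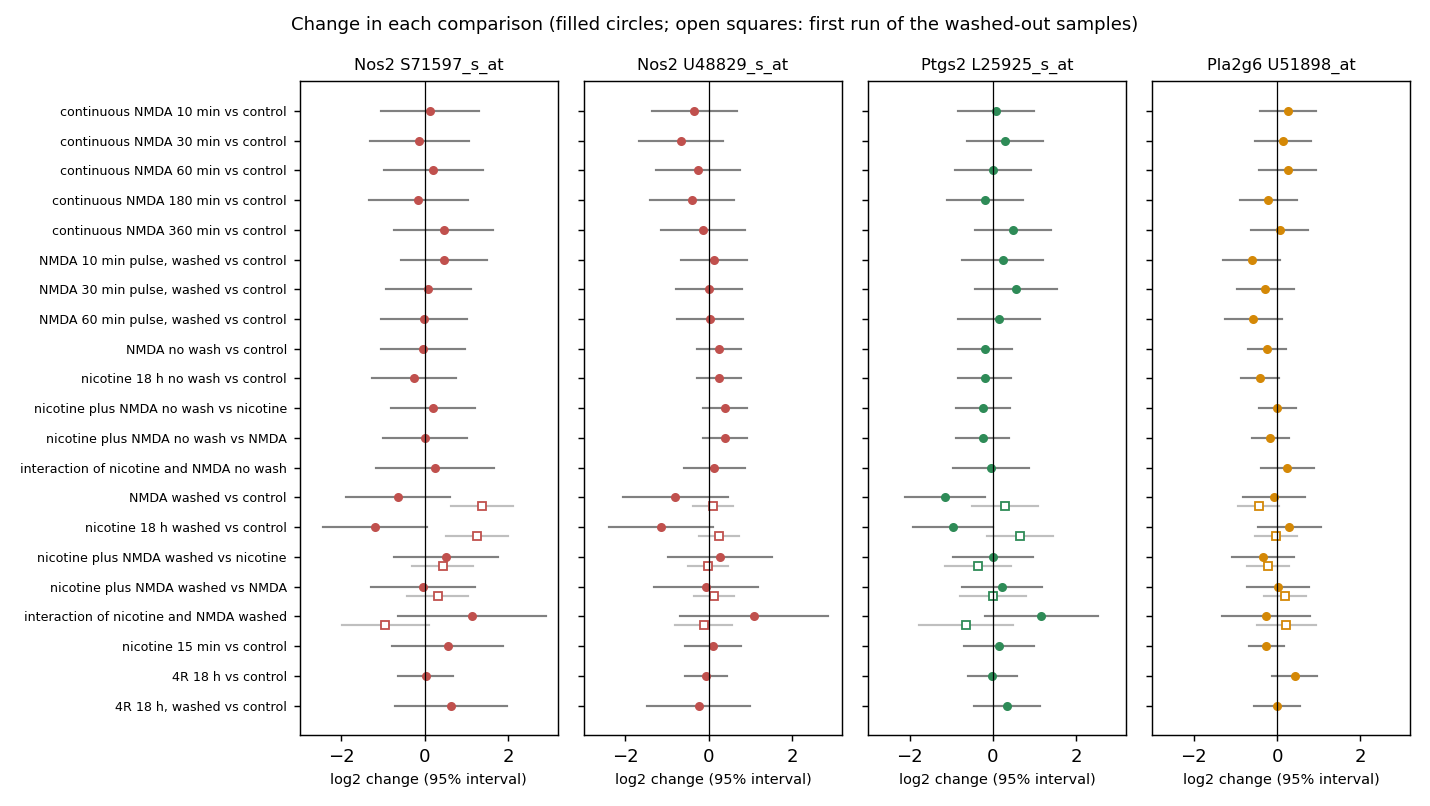
Change on the log2 scale (points) with its 95% interval (lines) of Nos2 S71597_s_at, Nos2 U48829_s_at, Ptgs2 and Pla2g6 in the 21 comparisons, with the first run of the washed-out samples as open squares. Intervals cross 0 in most comparisons, and Nos2 S71597_s_at lies on opposite sides of 0 in the 2 runs of the washed-out samples for NMDA and for nicotine.

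Nos1 carries the synthase that sits at the NMDA receptor, and its signal stayed near the lower end of the range. Over the 112 arrays U67309_at had a median of 163 and ranged between 81.4 and 8630. The top value and one of 842 came from control replicates 3 and 4 of the washed-out repeat run, whose other control replicates had 137, 183 and 211. In that run nicotine-treated samples had 146, 171, 107, 152 and 139, and NMDA-treated samples had 191, 143, 173, 182 and 129. The groups overlapped, and nicotine against control gave a log2 change of -1.64 (SE 0.73, adjusted p = 0.216, limma). Without the 2 control arrays it was -0.22 (SE 0.22, adjusted p = 0.836). U67309_at passed the filter of that run, a mean of 427, only through these 2 arrays. The nicotine, nicotine plus NMDA and NMDA groups averaged 143, 119 and 164. Neither change is therefore evidence of a response. The second Nos1 probe set, X59949cds_s_at, had a median of 59.3 and was never tested.

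Nos3, the endothelial synthase, had a median of 33.5 over the 112 arrays. Its highest signals were 2332 in replicate 2 of the 10 min continuous NMDA group, against 73.5 and 51.5 in replicates 3 and 4 of that group, and 1244 and 371 in control replicates 4 and 3 of the washed-out repeat run. All 3 arrays are among those that stood apart. Igf2 was the 1 gene on the array among 12 listed for endothelial and meningeal cells, so the cell source of Nos3 was not tested.

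Nos2, the inducible synthase, gave no change that passed the test while NMDA was left on. For S71597_s_at the signals were 501, 860.3 and 363 in control samples, 542, 941 and 419 at 10 min and 183, 653 and 886 at 30 min. They were 581, 995 and 452 at 60 min, 523, 450.2 and 472 at 180 min and 534, 2152 and 379 at 360 min. Every group overlapped the control group, and the 2152 at 360 min came from replicate 3, an array that stood apart. The log2 changes lay between -0.15 and 0.46 (SE 0.56). After the 10, 30 and 60 min pulses and a 24 h wash, S71597_s_at gave 0.47, 0.09 and -0.01 on the log2 scale (SE 0.49, smallest adjusted p = 0.881), none of which passed. U48829_s_at gave 0.13, 0.00 and 0.04 (SE 0.38). In these cultures a lower signal from fewer cells of a type and from less RNA per cell cannot be told apart.

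In the crossed run, AF006619_s_at had the smallest p of the Nos2 probe sets. Cells given nicotine plus NMDA had 322, 214 and 719.8, against 93.5, 64.2 and 107 with nicotine alone, and the groups did not overlap. How many of all probe sets separate in this way was not counted. NMDA alone gave 479, 164 and 234, and control cells gave 147, 312 and 285, so the nicotine group was the low one of the 4. Nicotine plus NMDA against nicotine came to 1.58 on the log2 scale (SE 0.48, unadjusted p = 0.00634, adjusted p = 0.467), which did not pass. Without the nicotine plus NMDA group, the mean of AF006619_s_at lay below the 259 needed for a test in that run. Neither this change nor its p is therefore evidence of a response. S71597_s_at in the same comparison gave 0.21 (SE 0.46), U16359cds_at 0.03 (SE 0.64) and U48829_s_at 0.38 (SE 0.24).

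Brief nicotine gave the lowest change of U16359cds_at. Signals were 251, 414 and 591 after 15 min of nicotine, against 798, 1045 and 1131 in control cells, with no overlap. The share of all probe sets without overlap was not counted there. The log2 change was -1.19 (SE 0.29, unadjusted p = 0.00225), and the adjusted p was 1 over the 884 probe sets, none of which passed in that comparison. The same samples gave 0.55 (SE 0.60) for S71597_s_at and 0.10 (SE 0.30) for U48829_s_at. U16359cds_at varied widely between replicates elsewhere, with 4123, 1393, 2506 and 768 in the 4 control samples of the pulse run. When the washed-out samples were hybridized again, its readings of 1 sample differed by a median of 1.01 on the log2 scale.

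With 4R for 18 h the 3 Nos2 probe sets tested in every run gave 0.02 (S71597_s_at, SE 0.28), -0.63 (U16359cds_at, SE 0.58) and -0.07 (U48829_s_at, SE 0.22), and none passed. After the 24 h wash they were 0.63, 0.27 and -0.24, also without a call. The signals of S71597_s_at were 928, 453 and 300.3 with 4R and wash, against 526, 440.3 and 88.7 in control cells. The groups overlapped.

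The call for Nos2 was in the first run of the washed-out samples. S71597_s_at had 443, 589, 409.7, 419 and 109.9 in NMDA-treated samples, against 55.3, 267, 61, 46.4 and 169 in control samples. Replicate 5 of NMDA was below 2 of the control samples and the other 4 were above all of them. The log2 change was 1.38 (95% interval 0.64 to 2.12, SE 0.35, adjusted p = 0.0155, n = 5 each, limma), and leaving out each of the 10 samples in turn gave 1.22 to 1.71 with adjusted p between 0.00174 and 0.0475. Nicotine plus NMDA gave 333, 487, 549, 394 and 552 and nicotine alone gave 287, 314, 221, 342 and 500.3. Nicotine against control was 1.26 (SE 0.35, adjusted p = 0.094). The control group, in which 3 of 5 samples lay below 62, was the low one.

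The same RNA samples did not give that pattern in the repeat run. There NMDA-treated samples had 397, 109, 386, 487 and 383 for S71597_s_at, against 424, 421, 665, 3207 and 73.9 in control samples. The log2 change was -0.63 (SE 0.60, adjusted p = 0.538) with all arrays and 0.29 (SE 0.46, adjusted p = 0.776) without control replicates 3 and 4. Control replicates 1, 3 and 4, at 55.3, 61.0 and 46.4 in the first run, read 424, 665 and 3207 in the repeat run. Averaging both readings of each sample gave 0.38 (adjusted p = 0.545).

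Both runs can also be read with NMDA averaged over the samples with and without nicotine, a comparison added after the data were seen. For S71597_s_at this gave 0.91 (SE 0.25, adjusted p = 0.0173) in the first run, where 15.3% of probe sets passed, and -0.06 (SE 0.42, adjusted p = 0.968) in the repeat run, where 0.792% passed. The 3 other Nos2 probe sets tested in 1 or both of these runs gave no call. U48829_s_at was at 0.10 (SE 0.23) for NMDA against control in the first run and U16359cds_at at 0.14 (SE 0.68). U03699complete_seq_at gave -1.87 for NMDA and -2.07 for nicotine against control in the repeat run (adjusted p = 0.219 and 0.191), with 4079 and 4108 in control replicates 3 and 4 and 304 to 524 in the other controls. Without those 2 arrays they were -0.57 and -0.77. U03699complete_seq_at reached the mean of 427 needed for a test in that run only through those 2 arrays.

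Cell type markers were set beside that call. Itgam, a microglial integrin, had 181, 185, 159, 252 and 148 in the NMDA samples of the first run, against 148, 86.5, 205, 258 and 164 in control samples, and was below the filter. The summed signal of 6 astrocyte markers ranged between 25626 and 42617 in NMDA samples and between 31216 and 40772 in control samples. The summed signal of the 5 oligodendrocyte markers was 5242 to 13433 with NMDA and 4171 to 7690 in control samples, and that of the 10 neuronal markers was 107148 to 124679 with NMDA and 113794 to 131086 in control samples. Of the 6 astrocyte markers tested 0 passed, and their median change was 0.00 on the log2 scale. Of the 4 oligodendrocyte markers tested 1 passed, Mag, which rose by 0.71 (adjusted p = 0.0025, limma), and the list's median was 0.36. Of the 9 neuronal markers tested 1 passed, the neurofilament gene Nefl, which rose by 0.52 (adjusted p = 0.035), while the list's median was -0.06. The median of all probe sets was 0.16. The part of these in the Nos2 result was not tested.

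**Figure D3:**
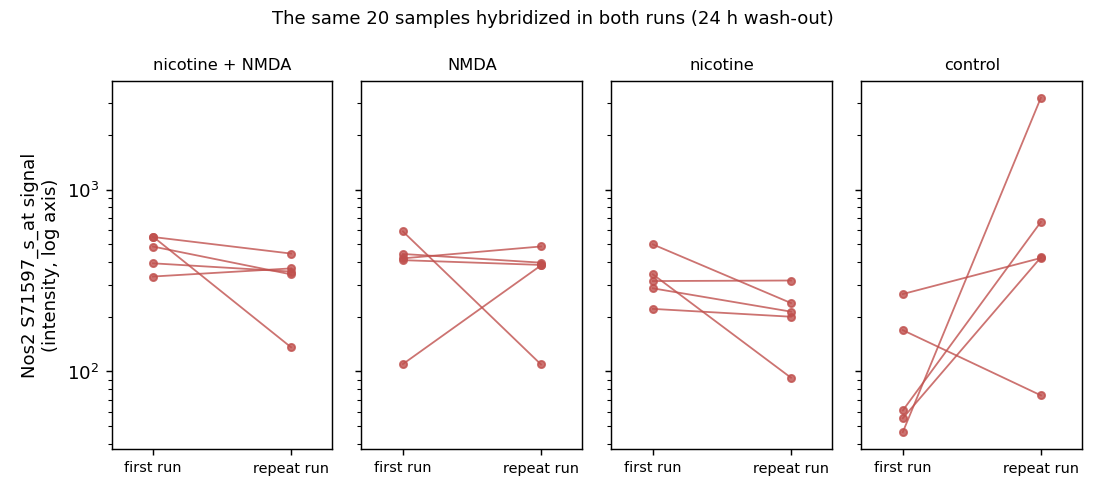
Signal of Nos2 S71597_s_at (intensity, log axis) in the washed-out samples, 5 per group, with a line joining the first-run and repeat-run reading of 1 sample. In the control panel the first-run readings of 46.4 to 267 include the lowest of the experiment, and replicate 4 moved to 3207.

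The 7 Nos2 probe sets did not move as 1 signal across arrays. On log2 values minus the run mean, their 21 pairs had correlations between 0.13 and 0.74 (median 0.38) over 84 arrays, which share runs and scaling. Without the 9 arrays that stood apart the range was -0.21 to 0.47 (median 0.18, 75 arrays). No p is attached to these values.

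Ptgs1, the constitutive cyclooxygenase, was tested in the continuous, pulse and crossed runs. Its log2 changes lay between -0.85 after 60 min of continuous NMDA and 0.62 after the 30 min pulse, and the smallest adjusted p was 0.948. Without the 30 min pulse group its mean lay below the 287 needed for a test in the pulse run. Without the NMDA group its mean lay below the 259 needed in the crossed run. The change of 0.62 is therefore not evidence of a response. The continuous control samples had 73.9, 1322 and 583. With the 4 samples per group of the pulse run, Ptgs1 had 278, 603, 517 and 379.8 after the 30 min pulse, against 66.8, 329, 527 and 288 in control cells. These overlapped. In the 4R run Ptgs1 lay below the filter and was not tested. It had 284, 265 and 590.3 after 18 h of 4R, against 78.2, 97.3 and 199 in control cells. These values did not overlap, but how many of all probe sets separate in this way was not counted. When the washed-out samples were hybridized again, readings of Ptgs1 differed by a median of 0.74 on the log2 scale. The lack of overlap is therefore not taken as a response.

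Ptgs2, the inducible cyclooxygenase, did not pass the test in any comparison. While NMDA was left on, its signals were 491, 642 and 611 in control cells, 417, 755 and 703 at 10 min, 463, 914 and 864 at 30 min and 472, 946 and 433 at 60 min. They were 525, 614 and 373 at 180 min and 486, 1822 and 654 at 360 min. All 5 times overlapped the control group, and the 1822 was the array that stood apart. The log2 changes were 0.06, 0.28, 0.01, -0.19 and 0.49 in order of time (SE 0.43), and the 95% interval at 60 min was -0.90 to 0.92.

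Fos, an immediate early gene of activated neurons, was read in the same arrays for comparison. Its probe set X06769cds_g_at had 4581, 6706 and 5104 in control cells, 24023, 17237 and 25939 at 60 min and 44104, 10840.1 and 45589.9 at 180 min. The 180 min value was a rise of 2.36 on the log2 scale (SE 0.46, adjusted p = 0.0409), while 2.02 at 60 min had an adjusted p of 0.0564. Fos rose in the crossed run by 1.94 with NMDA (SE 0.17, adjusted p = 2.24e-05), and Ptgs2 gave -0.19 (SE 0.29, 95% interval -0.83 to 0.45). Ptgs2 signals there were 335, 608 and 389.9 with NMDA, against 402, 583 and 531 in control cells, and overlapped. Whether the 2 genes differ in response was not tested.

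A day after a pulse, Ptgs2 had 310.3, 140.1, 635 and 299 in control cells, 276, 299, 488 and 474 after 10 min of NMDA, 344, 462, 722 and 455 after 30 min and 139, 234, 538 and 725 after 60 min. The control group spans nearly the whole range of the pulsed groups. The log2 changes of Ptgs2 were 0.23, 0.55 and 0.14 (SE 0.47, adjusted p = 0.959, 0.999 and 0.971), whereas Fos rose by 2.23, 1.96 and 1.77 (SE 0.37, adjusted p = 0.00185, 0.00595 and 0.0139). The second pulse set, with 1 array each and no test, read 89.9 in control cells and 338, 110.0 and 404 after 10, 30 and 60 min. Repeat arrays of 3 pulse samples read 924, 342 and 377, against 474, 722 and 725 on their first arrays. The remaining repeat array equalled its first array within 0.05 at 1320 of 1322 probe sets and was not counted again.

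**Figure D4:**
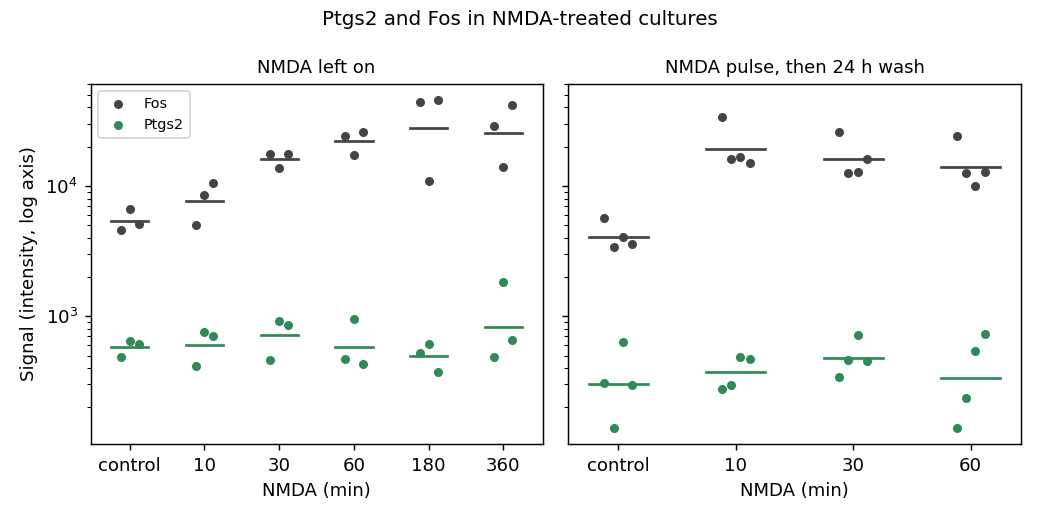
Signal (intensity, log axis) of Fos (dark) and Ptgs2 (green) by sample, with geometric means as bars, while NMDA was left on (left) and 24 h after an NMDA pulse (right). Fos sits above its control samples at 60 min and after all 3 pulses, and Ptgs2 overlaps its control samples at every time; the heights of the 2 probe sets cannot be compared as amounts.

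The washed-out samples gave Ptgs2 opposite signs in the 2 runs. In the repeat run it had 475, 225, 396, 573 and 106 with NMDA, against 819, 374, 724, 2516 and 449 in control samples, with overlap. That was -1.15 on the log2 scale (SE 0.46, adjusted p = 0.238), and -0.63 (adjusted p = 0.432) without control replicates 3 and 4. The first run had 253, 538, 365, 291 and 376 with NMDA, against 395, 373, 67.5, 425 and 322 in control samples, or 0.28 (SE 0.38, adjusted p = 0.663). The runs with brief nicotine, with 4R, and with 4R washed out gave Ptgs2 changes of 0.14, -0.02 and 0.33 (SE 0.38, 0.25 and 0.35). In the brief nicotine run the 10 activity-regulated genes on the array summed to 102104 to 115568 in control samples. With nicotine they summed to 108843 to 113699. Control samples of the other replicated runs lay between 17627 and 70930. The part of this in the changes of the brief nicotine run was not tested.

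Pla2g6, the calcium-independent phospholipase A2, had among the smallest standard errors of the members, and was lower on average 24 h after NMDA in each set of washed samples without passing the test. After a pulse the signals were 2237, 2003, 1497 and 2159 in control cells, 1334, 1294, 915 and 1552 after 10 min, 2108, 943, 2196 and 1459 after 30 min and 1027, 1277, 1799.8 and 1187 after 60 min. All 4 samples of the 10 min group and all 4 of the 60 min group were below the control mean, and so were 2 of 4 in the 30 min group, although every group overlapped the control group. The log2 changes were -0.61, -0.28 and -0.57 (SE 0.33, adjusted p = 0.576, 0.999 and 0.889). Culture labels pair these samples, although replicates 3 and 4 share 1 date and differ only by a suffix. Against the control of the same label, Pla2g6 was lower in 4 of 4 samples after 10 min, by 0.46 to 0.72 on the log2 scale, in 3 of 4 after 30 min and in 3 of 4 after 60 min. Nos1 U67309_at, Nos2 U03699complete_seq_at and Nos3 were higher in 4 of 4 after 10 min. The share of all probe sets with 4 of 4 in 1 direction was not counted. With replicate number as a block the changes were the same, with an SE of 0.32 and adjusted p of 0.449, 0.999 and 0.68 (limma). Replicate 3 of the 10 min pulse stood apart. Without the arrays that stood apart the changes were -0.47, -0.28 and -0.53 (adjusted p = 0.48, 0.812 and 0.495, limma). The mean of the 3 pulses against control, added after the data were seen, was -0.49 (95% interval -1.05 to 0.07, adjusted p = 0.648), in a comparison with calls at 2.71% of probe sets and at 0 members. The neuronal markers tested had a median log2 change of -0.47 after the 10 min pulse, their lowest in the planned comparisons. None of them passed. The summed signal of the 10 neuronal markers was 38334 to 134723 after that pulse, 97513 to 119194 after 30 min and 92840 to 120151 after 60 min. Control samples had 116546 to 125472. The part of these markers in the Pla2g6 values was not tested.

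The second pulse set read 3081 for Pla2g6 in its control array and 1289.7, 1549 and 1829.7 after 10, 30 and 60 min. All 3 pulsed arrays were below the control array. Repeat arrays of 3 pulse samples read 1904, 1264 and 1263, against 1552, 2196 and 1187 on their first arrays.

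A 30 min exposure to NMDA with a 24 h wash gave Pla2g6 signals of 1329.8, 1831, 1932, 1590.0 and 1593 in the first run, against 2425, 2629, 2514, 3111 and 1161 in control samples. All 5 NMDA samples were below the control mean, and control replicate 5 was below all of them. The change was -0.44 on the log2 scale (SE 0.24, adjusted p = 0.233). The repeat run had 1656, 2365, 1729, 1996 and 1387 with NMDA, against 3214, 2402, 2515, 495 and 2434 in control samples, with a change of -0.08 (SE 0.36, adjusted p = 0.913). Control replicate 4, the low value of 495, was 1 of the 2 arrays that stood apart, and without both the groups no longer overlapped and the change was -0.55 (SE 0.21, adjusted p = 0.174). How many of all probe sets separate in this way without the 2 arrays was not counted.

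Averaged over samples with and without nicotine, a comparison added after the data were seen, NMDA gave Pla2g6 -0.34 (adjusted p = 0.2) in the first run and -0.21 (adjusted p = 0.749) in the repeat run. Without control replicates 3 and 4 the repeat-run value was -0.45 (95% interval -0.74 to -0.15, adjusted p = 0.0508), just short of the threshold in a comparison with calls at 10.7% of probe sets. The same 20 RNA samples underlie both runs, so they are not independent. In that last comparison 1 of 9 neuronal markers tested passed, the enolase Eno2, which fell by 0.32 on the log2 scale (adjusted p = 0.00882), while the list's median was 0.07. Of 4 oligodendrocyte markers 1 passed, Mag, which rose by 0.58 (adjusted p = 0.00603), with a list median of 0.30, and of 6 astrocyte markers 0 passed, with a median of -0.01. The median of all probe sets was 0.10, and the part of these markers in the Pla2g6 value was not tested.

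**Figure D5:**
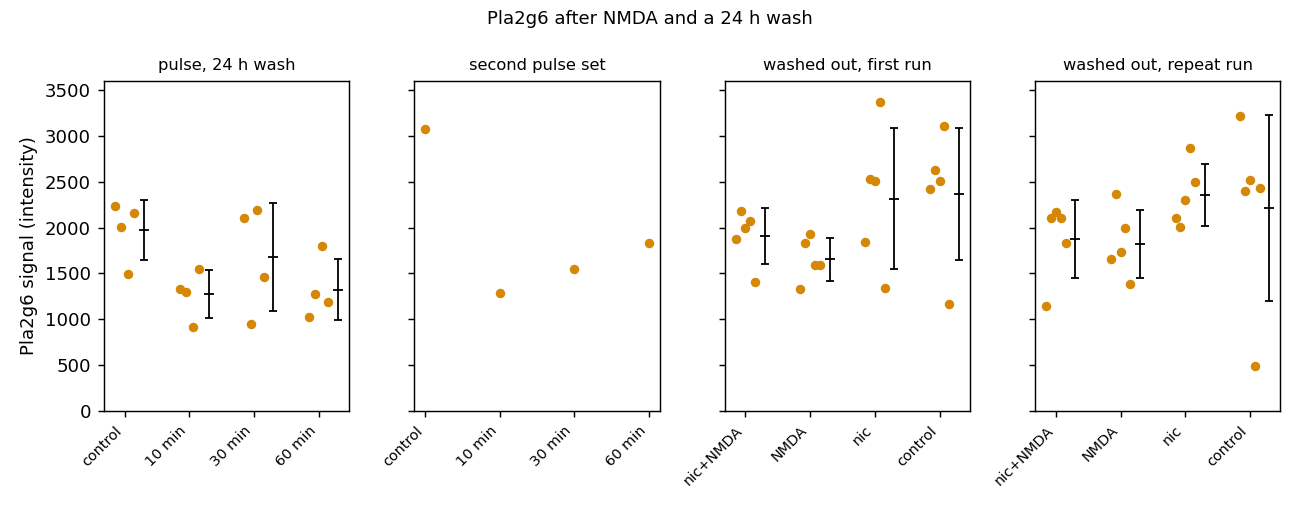
Signal of Pla2g6 (intensity, linear axis starting at 0) by sample in the 4 sets of samples harvested 24 h after wash-out, with the mean and SD beside each replicated group. Pulsed and NMDA-treated samples sit mostly below the control samples of their panel, and 1 control sample at 1161 and 1 at 495 lie below the NMDA samples of the 2 washed-out runs.

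Without a wash no change of Pla2g6 passed the test either. Continuous NMDA gave 0.27, 0.15, 0.25, -0.21 and 0.06 in order of time (SE 0.32). NMDA in the crossed run gave -0.24 (SE 0.21, 95% interval -0.69 to 0.21). Nicotine for 18 h gave 2651, 2257 and 2778, against 3436, 2997 and 3824 in control cells, without overlap, a change of -0.41 (SE 0.21, adjusted p = 0.716). The share of all probe sets without overlap in that comparison was not counted. With 4R for 18 h the signals were 2405, 2309.8 and 1625, against 1747, 1786 and 1177 in control cells, a change of 0.42 (SE 0.23, unadjusted p = 0.112). After 4R and a wash the change was -0.01 (SE 0.24). Whether the washed and unwashed changes differ was not tested, since they come from separate runs.

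In the crossed run, NMDA averaged over cells with and without nicotine, added after the data were seen, had calls at 1.24% of probe sets and at 0 members. AF006619_s_at had there the smallest unadjusted p of the members, 0.0257 (adjusted p = 0.731). Without the nicotine plus NMDA samples its mean lay below the filter of that run, so this p is not evidence of a response.

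How well a member could be read was measured on the 18 washed-out samples whose arrays did not stand apart in the repeat run. On log2 values the first-run and repeat-run readings of Pla2g6 correlated at 0.36, those of Nos2 S71597_s_at at -0.09, those of Nos2 U16359cds_at at 0.07 and those of Ptgs2 at -0.43. The median over 826 probe sets was 0.47, with quartiles of 0.20 and 0.73. A reading of Pla2g6 differed between runs by a median of 0.27 on the log2 scale, one of Ptgs2 by 0.45, and one of Ptgs1 by 0.74, beside 0.24 over all 826. Ptgs2 correlated with Ptgs1 at 0.26 over the 84 arrays and at 0.31 over the 75 that did not stand apart, and with Pla2g6 at -0.14 and 0.21, on log2 values minus the run mean. The readings across runs are descriptions of 1 experiment with 4 treatment groups, and no p is attached.

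The other genes of these pathways were sparse on the array. Of 18 genes of prostanoid and lipoxygenase synthesis none was represented, and of 20 phospholipase and arachidonate-release genes 3 were, namely Plcb1, Pld1 and Pld2. Of 15 genes of arginine and cofactor supply 1 was present, the arginine transporter Slc7a2, and it never passed the filter. Of 16 partners of the synthases 8 were present, among them Dlg4, which encodes PSD-95, and Nos1ap, which encodes an adaptor of the neuronal synthase. Of 23 genes of cyclic GMP and heme oxygenase signalling 5 were present. None of these genes was called in the 21 planned comparisons, over 43, 147 and 74 tests of the phospholipase, partner and cyclic GMP lists. With all arrays, the medians of these 3 lists were highest in the partner list for nicotine against control in the washed-out repeat run, at 0.75, and lowest in the cyclic GMP list for NMDA against control in that run, at -0.78, while the median of all probe sets stayed between -0.11 and 0.09. Both values rest on control replicates 3 and 4 of that run, and without them they were 0.02 and 0.32. In that run the 9 neuronal markers tested had a median of 0.75 for NMDA against control with all arrays and -0.07 without the 2.

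Of 11 receptors for prostanoids, leukotrienes and platelet-activating factor, Ptger3 and Ptgfr were on the array. Ptger3 encodes a prostaglandin E2 receptor and Ptgfr the prostaglandin F2 alpha receptor. Neither was called in the planned comparisons over 42 tests. In the first run of the washed-out samples both rose with NMDA against control, Ptger3 by 0.72 (SE 0.16, adjusted p = 0.00801) and Ptgfr by 0.77 (SE 0.24, adjusted p = 0.0393) on the log2 scale. Ptgfr also rose with nicotine plus NMDA against nicotine, by 1.35 (SE 0.24, adjusted p = 0.00316). The repeat run of the same samples gave 0.08, -0.51 and -0.06 for these 3 values, without a call. Of 16 listed activity-regulated genes 10 were on the array, and over 210 tests they gave 31 rises and 0 falls. Calls over all probe sets were 0% to 2.26% in these planned comparisons. The tests share arrays and control samples, and the list was chosen with earlier results of these data known.

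Likeness across arrays, with Nos2 taken by its brightest probe set, was the Pearson correlation of log2 values minus the run mean with named probe sets that passed the filter in each run, between 668 and 671 of them. Over the 75 arrays that did not stand apart, Ptgs2 was most like Foxm1 (0.52), Atp2b2 (0.48) and Casp2 (0.48), and Pla2g6 was most like Camkk1 (0.53), Thra (0.51) and Cacna1c (0.50). Nos2 U16359cds_at was most like Ptger3 (0.46), Csf2rb (0.44) and Bcl2 (0.39), and Ptgs1 was most like Drd5 (0.46), Csf2rb (0.44) and Cit (0.43). With all 84 arrays the 3 for Nos1 were Cit (0.84), Scn7a (0.83) and Cxcl6 (0.82), and without the 9 arrays they were Or10al6 (0.57), Avp (0.54) and Scn7a (0.51). For Nos3 the 3 without those arrays were Prkar2a (0.45), Mapt (0.35) and Chrnb4 (0.35). These arrays share runs, scaling and treatments, and no p is attached.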

How the data were processed

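Single-colour array signals of 112 samples were used. Per the values as deposited, they are linear intensities, one per probe set, scaled to a common trimmed mean per array. The scanner and summary software are not given in the sources used here. Of 1322 probe sets, 59 controls were left out, and genes were named from GEO's platform annotation (1137 probe sets with 1 gene, 8 with several, 118 with none).

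These deposited intensities were taken to log2 after adding the 10th percentile of the run's values. Each run was fitted with all its groups in limma 3.58.1 (R 4.3.3, variance trend), two-sided, over probe sets with a mean above the 30th percentile, with Benjamini-Hochberg adjustment and a threshold of 0.05. Errors are limma's standard errors with 95% intervals. The script was tested on simulated data. An array stood apart when its median correlation with its run lay more than 1.5 interquartile ranges under the lower quartile.

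Every member probe set was to be named, with other genes from lists where called, and the 3 genes most like each member. Members and lists were chosen with earlier results of these data known. Groups share replicate numbers. Same-numbered deviations had median correlations of 0.41 (lowest 0.12) in the continuous run and of 0.11 to 0.49 in the others, with lowest values of -0.17 to 0.46. Culture dates in the labels pair the pulse and crossed samples and those of the 4R run without wash, and in part those of the washed 4R run, so a replicate block was an alternative. Some pulse replicates share a date, and the block was the replicate number. Others were the added offset, filter, normalization, variance trend, the groups fitted, arrays left out and the first run.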

Additional observations from a re-analysis of the deposited data

Results flagged for a closer look

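Within groups of 4 or 5 samples, 1 sample stood far from the others in 19 of 156 combinations of probe set and group, by a gap to its nearest neighbour above Dixon's critical share of the group's range. Chance gives this in about 1 in 20 groups. None of the 18 pairs of comparisons examined for a difference between groups met the criteria. Each value below is followed by the nearest value of its group.

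Nos2 S71597_s_at was low in NMDA replicate 2 at 109 (nearest 383) and in nicotine plus NMDA replicate 5 at 136 (nearest 342) of the washed-out repeat run, in NMDA replicate 5 of the first run at 109.9 (nearest 409.7), and in pulse control replicate 2 at 197 (nearest 488). Among the other Nos2 probe sets, U48829_s_at was high in replicate 3 of the 10 min pulse at 1389.6 (nearest 564), an array that stood apart, and U03699complete_seq_at was low in replicate 4 of the 30 min pulse at 163 (nearest 285). D44591_s_at was high in NMDA replicate 5 at 146 (nearest 45.4) and low in nicotine plus NMDA replicate 1 at 22.3 (nearest 32.2) of the repeat run. AF006619_s_at was low in nicotine plus NMDA replicate 3 of the first run at 157 (nearest 254).

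Ptgs2 was low in nicotine replicate 5 of the repeat run at 152 (nearest 414), and in the first run in nicotine plus NMDA replicate 5 at 113 (nearest 391), an array that stood apart, and in control replicate 3 at 67.5 (nearest 322). Pla2g6 was low in nicotine plus NMDA replicate 1 at 1148 (nearest 1837) and in control replicate 4 at 495 (nearest 2402) of the repeat run, and in control replicate 5 of the first run at 1161 (nearest 2425).

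In the first run Nos1 U67309_at was low in control replicate 3 at 94.3 (nearest 126), and X59949cds_s_at was high in control replicate 2 at 216 (nearest 47.7). Nos3 was high in NMDA replicate 1 at 100.1 (nearest 34.7) and in control replicate 2 at 149 (nearest 37.8) of that run.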

How the results depend on the processing

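Of 408 recomputed counts of member probe sets called, 406 stayed at 0 as in the values first given. The exceptions were NMDA against control in the washed-out samples, where the first run gave 1 call (Nos2 S71597_s_at), and again 1 without its arrays that stood apart, an alternative chosen after seeing the data. That probe set's change of -0.63 in the repeat run turned to 0.29 without control replicates 3 and 4, to 0.23 with the replicate block and without those arrays, to 1.38 in the first run with or without its arrays that stood apart, and to 0.38 for the mean of both runs. Ptgs2 in that comparison was -1.15 in the repeat run and 0.28 in the first run, with or without its arrays that stood apart. The cause was not tested. Over single member changes, 1709 alternatives gave 2 calls, both of S71597_s_at in the first run, and 111 with the other sign. The 1284 refits that left out 1 array gave 0 calls in the planned comparisons. The replicate block changed no member call.

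Counts over all probe sets moved more. Continuous NMDA gave 0 to 8 calls at 30 min (first value 0), 0 to 11 at 60 min (6), 0 to 17 at 180 min (4) and 0 to 22 at 360 min (0). The pulses gave 9 to 51 (20), 11 to 43 (12) and 10 to 38 (14). In the crossed run NMDA against control gave 7 to 14 (8). In the washed-out samples NMDA against control gave 0 to 126 (2), nicotine against control 0 to 3 (0), and nicotine plus NMDA gave 0 to 52 against nicotine (0) and 0 to 2 against NMDA (0). The highest counts came mostly from the replicate block without arrays that stood apart, and for NMDA or nicotine against control in the washed-out samples from the first run.

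With 3 to 5 arrays per group intervals were wide, for example -0.90 to 0.92 on the log2 scale for Ptgs2 after 60 min of continuous NMDA, so smaller responses were not detectable. The files give no detection calls, probe-level data or background, and Nos1, Nos3 and Ptgs1 were tested in few runs or none. The first and repeat readings of the same washed-out samples correlated between -0.47 and 0.36 for the members.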

Other observations

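Nos2 was also read in the second pulse set, which has 1 array per group and no test. S71597_s_at gave 244 in the control array and 355, 348 and 412 after 10, 30 and 60 min of NMDA, while U48829_s_at gave 531 in the control array and 448, 472 and 322. All 3 pulsed arrays were above the control array for S71597_s_at and below it for U48829_s_at. U16359cds_at gave 968 in the control array and 1057, 2268 and 1572.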
